A study of Rattus norvegicus with 6 samples.

Results

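A set of 10 genes of branched-chain amino acid catabolism was followed in rat kidney. They were *Ppm1k*, *Bckdk*, *Bckdha*, *Bckdhb*, *Dbt*, *Bcat1*, *Bcat2*, *Ivd*, *Hibadh* and *Mccc1*, 10 of the 17051 genes in the files. The genes were chosen by name with the difference between the diet groups in these same 6 rats already known, so their log2 fold changes are given as a description and carry no test. All 10 passed the filter on low values, for which the count of 1 or more rats had to reach 30. Kidney RNA was sequenced from male Sprague Dawley rats that had been allocated at random to 1 of 2 diets. The AL group (rats 61, 71 and 88) ate standard powdered chow ad libitum. The HD group (rats 64, 67 and 69) ate the same chow with a mixture of amino acids composed to mimic hemoglobin, the pre-hyperammonemic diet, for a week. The labels name no genetic change in either group, and the age of the rats was not given in the sources used here.

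Leucine, isoleucine and valine are broken down along a shared path. An aminotransferase, *Bcat2* in mitochondria or *Bcat1* in the cytosol, moves the amino group to 2-oxoglutarate, and the resulting branched-chain keto acid is decarboxylated by the branched-chain keto acid dehydrogenase complex, the committed and irreversible step. The complex is built from E1 (*Bckdha* and *Bckdhb*), E2 (*Dbt*) and E3 (*Dld*). The kinase encoded by *Bckdk* phosphorylates the E1 alpha subunit and switches the complex off, and the mitochondrial phosphatase encoded by *Ppm1k* removes that phosphate and switches it on. Past the complex the routes part, with *Ivd* and *Mccc1* serving leucine and *Hibadh* serving valine. Hemoglobin is known as a protein rich in leucine and valine and poor in isoleucine. The kidney takes part in the whole-body handling of these amino acids, and its proximal tubule is rich in mitochondria.

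In the HD group, *Ppm1k* had the largest increase of the 10 genes and *Bcat1* the largest decrease. The other 8 genes lay between, with log2 fold changes from 0.08 to 0.38. By gene level in CPM, scaled as described below, all HD rats lay above all AL rats for 4 of the 10 genes. These were *Ppm1k*, *Bckdk*, *Dbt* and *Ivd*. For 1 gene (*Bcat1*) all HD rats lay below all AL rats. Among all 11553 genes tested, the first pattern was found in 7.25% and the second in 7.01%. These shares are given as background, since the same contrast was used to choose the genes.

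No member passed the edgeR quasi-likelihood test after Benjamini-Hochberg adjustment, and neither did any other gene (0.0% of 11553). Before adjustment, 4 members were higher and 1 was lower in the HD group at a threshold of 0.05, against 4.66% of all genes higher and 5.94% lower. DESeq2, the tool the study named, called 1 member higher and 1 lower, where it called 0.805% of all genes higher and 0.77% lower. The members were chosen with this contrast known, so none of these counts is a test of them or is read as evidence on them.

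The 10 genes each had 1 transcript in the files, and no exon of another gene overlapped theirs, so no count was divided between isoforms. Library totals ranged from 12499945 estimated counts in rat 64 to 30466461 in rat 69. Levels are given as TMM-normalized CPM (counts scaled to library size and TMM factor) when a gene is compared between rats. TPM is used when genes are compared with each other. It is scaled to transcript length and library, and no TMM factors were applied to it. Across rats, the bounds that RSEM gave around a member's level reached at most 8.47% above the estimate, apart from *Bcat1*, where they reached 51.6%.

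The labelled tissue was checked against markers of kidney segments. Markers of the proximal tubule were abundant, with *Lrp2*, the endocytic receptor megalin, at 1791 to 2570.2 CPM, although *Slc5a2* stayed at 0.831 to 2.15 CPM and *Slc5a12* did not pass the filter. Summed over the 8 proximal tubule markers, the level was 8118 to 9520 CPM in the AL group and 10833 to 12414 CPM in the HD group. Of the 7 that were tested, 6 had a log2 fold change above 0 and 4 had HD rats all above AL rats. Log2 fold changes of these 7 ran from -0.05 (*Cubn*) to 1.07 (*Slc22a6*), with a median of 0.57. In RNA of whole tissue, fewer cells of a type and less RNA per cell cannot be told apart, which holds for every level given here. Some markers of other segments also differed between the same groups. All 4 thick ascending limb markers had log2 fold changes below 0. Their sums overlapped, at 5485 to 6232 CPM in the AL group and 3648 to 5915 CPM in the HD group. *Slc12a1* (-0.86) had HD rats all below AL rats, whereas *Umod* (-0.12), *Cldn16* (-0.17) and *Kcnj1* (-0.05) overlapped. Collecting duct markers were mixed, with 1 of 4 principal cell and 3 of 4 intercalated cell log2 fold changes above 0. *Slc12a3*, the cotransporter of the distal convoluted tubule, had a log2 fold change of 2.93 (edgeR adjusted *P* = 0.338). All 6 podocyte markers were above 0, with sums of 48.9 to 119 CPM in the AL group and 130.3 to 282 CPM in the HD group, and *Nphs1*, which encodes nephrin, had a log2 fold change of 2.35 (edgeR adjusted *P* = 0.0980, DESeq2 adjusted *P* = 1.73e-15). The part of these markers in the member levels was not tested.

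Sequences upstream of the start site are shown for the members whose groups did not overlap and whose window was in the RefSeq table of build GRCr8. They are the 250 bases before the start of *Bckdk* (chr1:191945559-191945808 (+ strand)), *Dbt* (chr2:207166410-207166659 (+ strand)), *Ivd* (chr3:126305334-126305583 (+ strand)) and *Bcat1* (chr4:179777289-179777538 (- strand)), read 5′ to 3′ on the strand of the gene. Capitals mark CCACCC, the core of a KLF box, or its reverse complement.

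Bckdk: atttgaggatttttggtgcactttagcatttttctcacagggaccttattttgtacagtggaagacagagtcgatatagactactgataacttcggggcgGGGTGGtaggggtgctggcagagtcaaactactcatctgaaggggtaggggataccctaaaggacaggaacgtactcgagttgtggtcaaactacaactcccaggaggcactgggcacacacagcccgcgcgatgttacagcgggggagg
Dbt: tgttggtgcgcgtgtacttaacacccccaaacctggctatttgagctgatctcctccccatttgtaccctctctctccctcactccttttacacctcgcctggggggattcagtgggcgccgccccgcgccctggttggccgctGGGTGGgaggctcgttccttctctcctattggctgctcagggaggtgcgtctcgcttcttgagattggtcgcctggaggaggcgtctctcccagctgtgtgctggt
Ivd: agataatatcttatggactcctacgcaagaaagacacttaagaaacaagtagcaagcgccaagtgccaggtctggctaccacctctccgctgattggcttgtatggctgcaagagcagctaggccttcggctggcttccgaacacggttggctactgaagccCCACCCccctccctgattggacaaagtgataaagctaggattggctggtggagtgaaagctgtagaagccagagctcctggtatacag
Bcat1: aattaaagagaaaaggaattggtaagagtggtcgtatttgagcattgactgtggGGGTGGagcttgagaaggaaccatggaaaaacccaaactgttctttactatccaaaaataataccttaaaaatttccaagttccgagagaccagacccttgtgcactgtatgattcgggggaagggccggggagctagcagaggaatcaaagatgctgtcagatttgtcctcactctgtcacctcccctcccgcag

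The table held windows of 300 bases, from 250 before to 50 after the start, for 8 of the 10 members. A KLF box was present on either strand in 7 of these 8 windows, with *Bcat2* the exception, and in 29.8% of the 27457 windows in the table. The match lay at -150 in *Bckdk*, -106 in *Dbt* and -88 in *Ivd*, and *Bcat1* had 1 at -196 and another at 6. GC content of the member windows ran from 49.3% to 67.0%, against a median of 52.3% for all windows, and 38.0% of the 13107 windows within that range of GC content held a KLF box. The E-box CACGTG (6.65% of all windows), the amino acid response element TGATGNAA (3.82%) and the ERR element TCAAGGTCA (0.412%) were in none of the 8 windows on either strand. A match of letters is not a bound site, and binding was not measured. Of the factors themselves, *Klf15*, a KLF factor known to act on this pathway in muscle, had an AL mean of 109 ± 21.7 CPM (SD, n = 3) and an HD mean of 109 ± 6.81 CPM (SD, n = 3).

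*Ppm1k* (NM_001107863, rn5 chr4:153516057-153540007, plus strand, 7 exons) encodes the phosphatase that activates the complex. Its level in the AL group was 91.3, 95.1 and 88.0 CPM in rats 61, 71 and 88. In the HD group it was 197, 179 and 144 CPM in rats 64, 67 and 69. The groups were far apart, with the lowest HD rat well above the highest AL rat, and the AL rats were much closer to each other than the HD rats were. The AL mean was 91.5 ± 3.58 CPM (SD, n = 3) and the HD mean 174 ± 27.0 CPM (SD, n = 3), a ratio of 1.90. Its log2 fold change was 0.92 with a standard error of 0.14. Of the 11553 genes tested, 278 had a larger one. Within the HD group, *Ppm1k* was highest in the rat with the smallest library (rat 64) and lowest in the rat with the largest (rat 69). The part of library size in that order was not tested.

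*Bckdk* (NM_019244, rn5 chr1:206374221-206378891, plus strand, 11 exons) encodes the kinase that opposes *Ppm1k*. It was at 148, 159 and 150.4 CPM in AL rats 61, 71 and 88 and at 174, 181 and 211 CPM in HD rats 64, 67 and 69. On the CPM scale, kinase levels were therefore also higher in all HD rats, by a smaller margin. The order among HD rats was the reverse of that of *Ppm1k*. Its log2 fold change was 0.31 with a standard error of 0.12, from means of 152 ± 5.85 CPM (SD, n = 3) and 189 ± 19.7 CPM (SD, n = 3). When levels were scaled by library size alone, without TMM factors, the *Bckdk* groups overlapped. They also overlapped in TPM, likewise without TMM factors, where AL rat 71 (154) lay above HD rats 64 (144) and 67 (148).

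**Figure D1:**
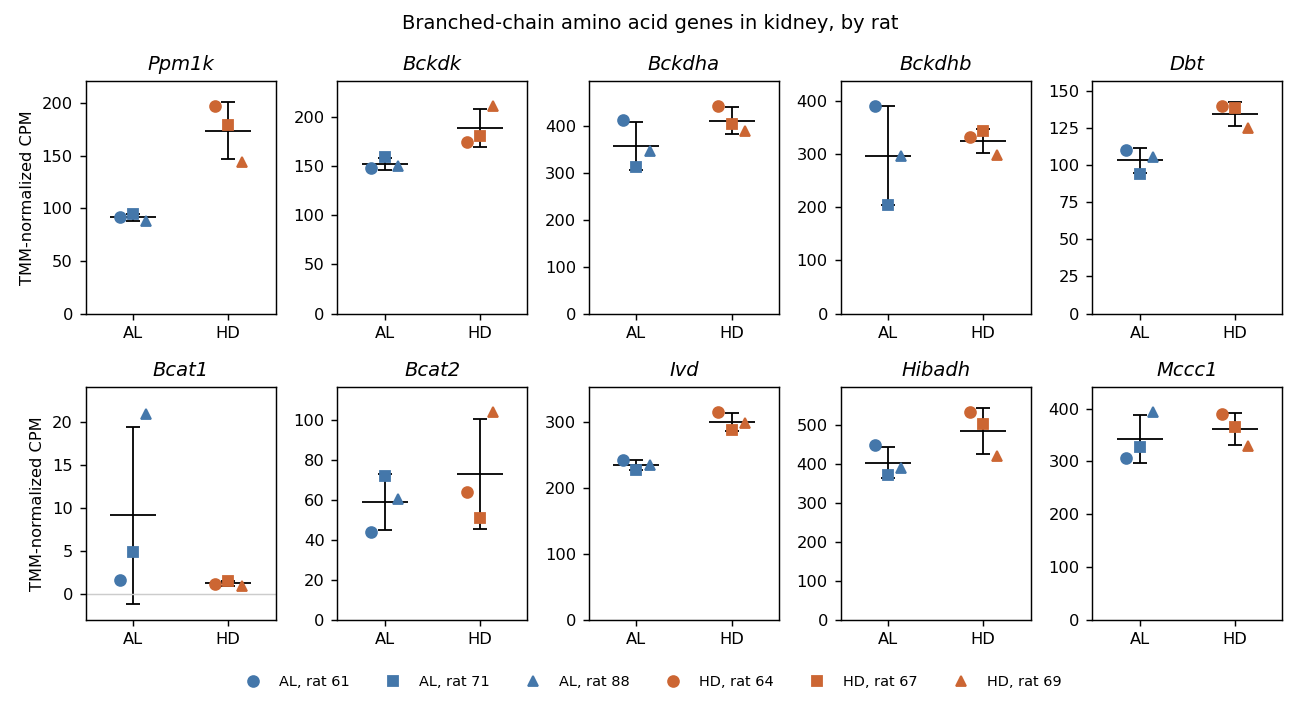
TMM-normalized CPM of the 10 genes by rat, with 1 panel for each gene, a linear axis in each, and bars for the mean and SD of 3 rats. *Ppm1k*, *Bckdk*, *Dbt* and *Ivd* have all HD rats (orange) above all AL rats (blue), *Bcat1* has them below, and the groups overlap in the other 5 panels. The *Bcat1* axis extends below 0 to hold the SD bar of the AL group.

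The phosphatase was set against the kinase within each rat, as the difference of their log2 values of CPM plus 0.5. *Ppm1k* minus *Bckdk* was -0.69, -0.74 and -0.77 in AL rats 61, 71 and 88. It was 0.18, -0.01 and -0.55 in HD rats 64, 67 and 69. The phosphatase was thus below the kinase on the CPM scale in all AL rats, above it in rat 64, about equal in rat 67 and still below it in rat 69, which was the HD rat nearest to the AL group. The AL mean was -0.73 ± 0.04 (SD, n = 3) and the HD mean -0.13 ± 0.38 (SD, n = 3), an HD minus AL difference of 0.61. Without rat 64 this difference was 0.45, and without rat 69 it was 0.82. Per transcript length, the *Bckdk* level was 2.38 to 2.52 times that of *Ppm1k* in the AL group and 1.30 to 2.16 times in the HD group, so kinase transcripts outnumbered phosphatase transcripts in all 6 rats.

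Against the subunits of the complex, the change in *Ppm1k* was of similar size. *Ppm1k* minus *Bckdha* had an AL mean of -1.95 ± 0.23 (SD, n = 3) and an HD mean of -1.25 ± 0.15 (SD, n = 3), an HD minus AL difference of 0.70 on the log2 scale. The difference for *Ppm1k* minus *Bckdhb* was 0.73, with rat 71 of the AL group at -1.09 and rat 69 of the HD group at -1.05 almost touching. For *Ppm1k* minus *Dbt* it was 0.53, from -0.17 ± 0.16 (SD, n = 3) to 0.36 ± 0.15 (SD, n = 3). All 4 log2 ratios had HD rats above AL rats without overlap. Since *Ppm1k* was chosen for its change, these ratios describe the chosen pattern and are not a test of it.

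**Figure D2:**
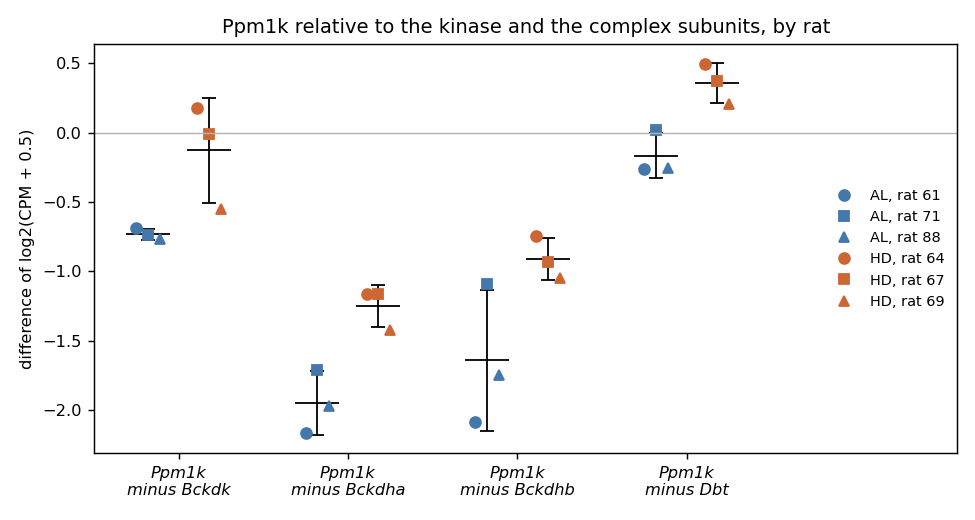
Log2(CPM + 0.5) of *Ppm1k* minus that of *Bckdk*, *Bckdha*, *Bckdhb* and *Dbt* in each rat, with the mean and SD of 3 rats. The HD rats lie above the AL rats in all 4 ratios, and the gap is narrowest for *Bckdhb*, between rat 71 at -1.09 and rat 69 at -1.05.

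The subunits of the complex differed less between diets than the phosphatase. *Bckdha* (NM_012782, rn5 chr1:83684796-83713565, minus strand, 9 exons) encodes E1 alpha, the subunit on which kinase and phosphatase act. It was at 413, 313 and 346 CPM in AL rats 61, 71 and 88 and at 442, 403 and 387 CPM in HD rats 64, 67 and 69. The groups overlapped because rat 61 lay above HD rats 67 and 69, and the log2 fold change was 0.20 with a standard error of 0.14. It was 0.32 without rat 61 and 0.11 without rat 71.

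*Bckdhb* (NM_019267, rn5 chr8:90982519-91173704, plus strand, 11 exons) encodes E1 beta. It was at 391, 204 and 296 CPM in the AL group, in the same order of rats, and at 331, 343 and 299 CPM in the HD group. The AL rats enclosed all HD rats, with rat 61 the highest and rat 71 the lowest of the 6. The log2 fold change was 0.13 with a standard error of 0.22, and without rat 71 it was -0.08.

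*Dbt* (NM_053312, rn5 chr2:237625211-237654081, minus strand, 11 exons) encodes E2, the transacylase core of the complex. The GRCr8 window printed above lies on the plus strand of that build, and the strands of the 2 builds were not reconciled. *Dbt* levels were compared as for the other subunits. It was at 110, 93.8 and 105 CPM in the AL group and at 140, 138 and 125 CPM in the HD group. Here the groups were apart, and the log2 fold change was 0.38 with a standard error of 0.11. *Dld*, the E3 subunit that this complex shares with others, is no member and had a log2 fold change of 0.31 with a standard error of 0.14 (edgeR adjusted *P* = 0.493).

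Among rats of the same group, several members deviated together, the subunits among them. After subtraction of each group's mean log2 level, Pearson's r over the 6 rats was 0.91 between *Bckdha* and *Bckdhb*, 0.86 between *Bckdha* and *Dbt* and 0.89 between *Bckdhb* and *Dbt*. Between *Ppm1k* and *Bckdk* it was -0.84. Pairs outside the complex and its regulators reached the same size, with 0.89 between *Hibadh* and *Dbt*, 0.85 between *Hibadh* and *Bckdha* and 0.87 between *Bcat1* and *Mccc1*. *Bckdk* had an r of -0.92 with *Hibadh*, -0.84 with *Dbt* and 0.85 with *Bcat2*. These values describe 6 points from which 2 means were removed, in libraries that each gene shares with all others. The r values were taken on the CPM scale only. On that scale rat 61 lay above its group mean and rat 71 below it for all 3 subunits. In TPM, which carries no TMM factors, the same held for *Bckdha* and *Bckdhb* but not for *Dbt*. *Dbt* was at 49.9, 51.3 and 53.7 TPM in AL rats 61, 71 and 88, with rat 61 the lowest.

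The aminotransferases stood far apart in level. *Bcat2* (NM_022400, rn5 chr1:102633422-102650883, plus strand, 11 exons), the mitochondrial enzyme, was at 44.2, 72.0 and 60.6 CPM in AL rats 61, 71 and 88 and at 63.9, 50.9 and 104 CPM in HD rats 64, 67 and 69. The groups overlapped and rat 69 was highest. The log2 fold change of 0.31 had a standard error of 0.29, and without rat 69 it was -0.03. Markers of fat tissue varied in the same rats. *Plin1*, a lipid droplet protein of adipocytes, was at 2.46, 0.111 and 1.39 CPM in AL rats 61, 71 and 88. It was at 0.594, 11.1 and 12.4 CPM in HD rats 64, 67 and 69. A large part of the summed fat markers was *Cidec*, at 128 to 190 CPM in the AL group and 146 to 184 CPM in the HD group. *Fabp4* was at 53.6, 29.2 and 33.4 CPM in AL rats 61, 71 and 88. In HD rats 64, 67 and 69 it was at 3.06, 156 and 131 CPM. The 5 fat markers summed to 283, 171 and 187 CPM in AL rats 61, 71 and 88. Their sums were 171, 413 and 368 CPM in HD rats 64, 67 and 69. The part of the fat markers in *Bcat2* was not tested.

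*Bcat1* (NM_017253, rn5 chr4:243444839-243491574, minus strand, 11 exons), the cytosolic enzyme, was scarce and varied most. Its estimated counts were 21, 88 and 315 in AL rats 61, 71 and 88, or 1.67, 4.88 and 20.8 CPM. In HD rats 64, 67 and 69 they were 14, 31 and 29, or 1.19, 1.55 and 0.927 CPM. Rat 88 held most of the AL signal, and rat 61 was only just above HD rat 67. The log2 fold change was -2.91 with a standard error of 0.86, and without rat 88 it was -1.43. Of all genes tested, 21 had a lower one. The 5 macrophage markers all had log2 fold changes below 0, and their sum was 37.1 to 102 CPM in the AL group and 23.3 to 44.5 CPM in the HD group. Within the AL group the macrophage sum was 37.1, 102 and 80.5 CPM in rats 61, 71 and 88. The 4 markers of fibroblasts and mesangium likewise all had log2 fold changes below 0. Their sums were 120, 303 and 271 CPM in AL rats 61, 71 and 88 and 54.4 to 166 CPM in the HD group. Within the AL group, *Dcn* (44.9, 89.5 and 124 CPM) and *Pdgfrb* (24.9, 47.1 and 49.4 CPM) were highest in rat 88. *Col1a1* and *Col3a1* were highest in rat 71. Their part in *Bcat1* was not tested.

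Downstream of the complex, *Ivd* (NM_012592, rn5 chr3:117207292-117227726, plus strand, 12 exons) encodes isovaleryl-CoA dehydrogenase, which takes the leucine product one step further. On the CPM scale *Ivd* was the steadiest of the 10 genes within groups, relative to its level. It was at 242, 226 and 234 CPM in AL rats 61, 71 and 88 and at 315, 288 and 298 CPM in HD rats 64, 67 and 69. In TPM, without TMM factors, *Dbt* was steadier, with SDs over 3 rats of 1.92 (AL mean 51.6) and 0.905 (HD mean 64.2). The TPM SDs of *Ivd* were 13.1 (AL mean 219.5) and 18.8 (HD mean 268). The groups were apart, with SDs over 3 rats of 7.62 CPM in the AL group and 13.5 CPM in the HD group, and a log2 fold change of 0.36 with a standard error of 0.10. *Mccc1* (NM_001009653, rn5 chr2:142186426-142317803, minus strand, 19 exons) encodes the biotin-containing subunit of methylcrotonyl-CoA carboxylase, the next enzyme of leucine breakdown. It was at 306, 328 and 393 CPM in the AL group and at 389, 366 and 329.8 CPM in the HD group. The groups overlapped almost fully, with a log2 fold change of 0.08 and a standard error of 0.14, or -0.01 when scaled by library size alone. Left-out rats gave 0.00 (without rat 61) to 0.20 (without rat 88). Its partner subunit *Mccc2*, not among the 10, had a log2 fold change of 0.32 with a standard error of 0.14 (edgeR adjusted *P* = 0.473).

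*Hibadh* (NM_022243, rn5 chr4:147270733-147368793, minus strand, 8 exons) encodes 3-hydroxyisobutyrate dehydrogenase of the valine route. It was at 448, 371 and 391 CPM in AL rats 61, 71 and 88 and at 533, 502 and 420.3 CPM in HD rats 64, 67 and 69. Rat 69 fell between the AL rats, so the groups overlapped, and the log2 fold change was 0.27 with a standard error of 0.14. When scaled by library size alone, the *Hibadh* levels of all HD rats lay above those of all AL rats. The preceding enzyme of valine breakdown, *Hibch*, had a log2 fold change of -0.02 with a standard error of 0.13 (edgeR adjusted *P* = 0.976). *Aldh6a1*, the next one, had an AL mean of 1640.5 ± 154 CPM (SD, n = 3), an HD mean of 2171 ± 370.4 CPM (SD, n = 3) and a log2 fold change of 0.40 (edgeR adjusted *P* = 0.466).

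**Figure D3:**
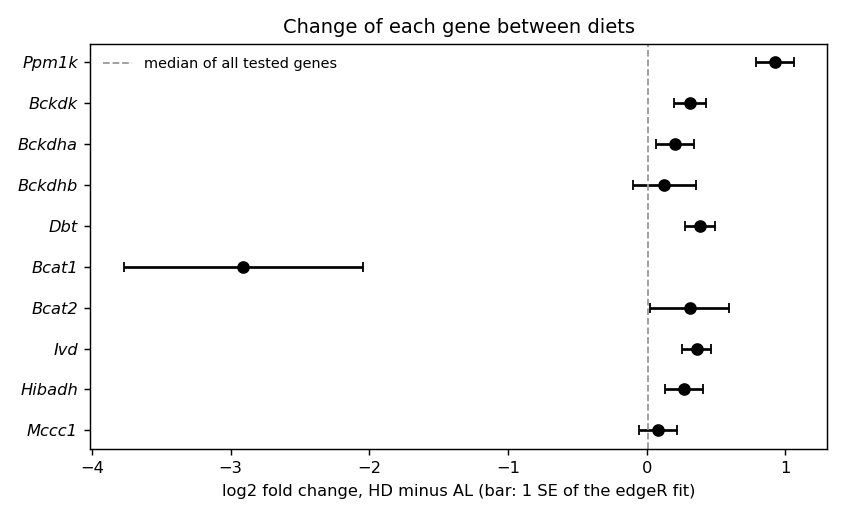
Log2 fold change of each gene, HD minus AL, with 1 standard error of the edgeR fit, and the median of all tested genes (0.01) as a dashed line. *Ppm1k* at 0.92 and *Bcat1* at -2.91 stand apart from the other 8 genes, which lie between 0.08 and 0.38.

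By level per transcript length, the order of the 10 genes over all 6 rats was *Hibadh* (mean 395 TPM), *Bckdha* (362), *Bckdhb* (325), *Ivd* (244), *Mccc1* (229.5), *Bckdk* (149), *Ppm1k* (77.6), *Bcat2* (68.2), *Dbt* (57.9) and *Bcat1* (3.39). Ranges over rats overlapped between neighbours in this order except between *Bckdk* and *Ppm1k* and between *Dbt* and *Bcat1*. Compared within rats, *Hibadh* exceeded *Bckdha* in 6 of 6 rats and *Bckdha* exceeded *Bckdhb* in 5 of 6, whereas *Ivd* exceeded *Mccc1* in 4 of 6, and *Ppm1k* exceeded *Bcat2*, and *Bcat2* exceeded *Dbt*, in 3 of 6. The order depended on the group for 2 pairs of neighbours. In the AL group the mean of *Mccc1* (229.7 TPM) was above that of *Ivd* (219.5) and the mean of *Bcat2* (62.6) above that of *Ppm1k* (55.6), and in the HD group *Ivd* (268 against 229.3) and *Ppm1k* (99.7 against 73.7) were the higher ones. *Hibadh* lay at the 96.0th percentile of mean TPM among tested genes, *Ppm1k* at the 83.1st and *Bcat1* at the 17.8th.

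The components of the complex were unequal in TPM. The levels of the E1 subunits were close to each other, with *Bckdha* at 0.948 to 1.38 times *Bckdhb*, whereas *Bckdha* was at 5.62 to 7.26 times *Dbt*. *Bcat2* exceeded *Bcat1* in all rats, by 4.70 times in rat 88 and by 181 times in rat 69. *Bcat1* TPM ranged from 0.61 in rat 69 to 13.7 in rat 88.

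**Figure D4:**
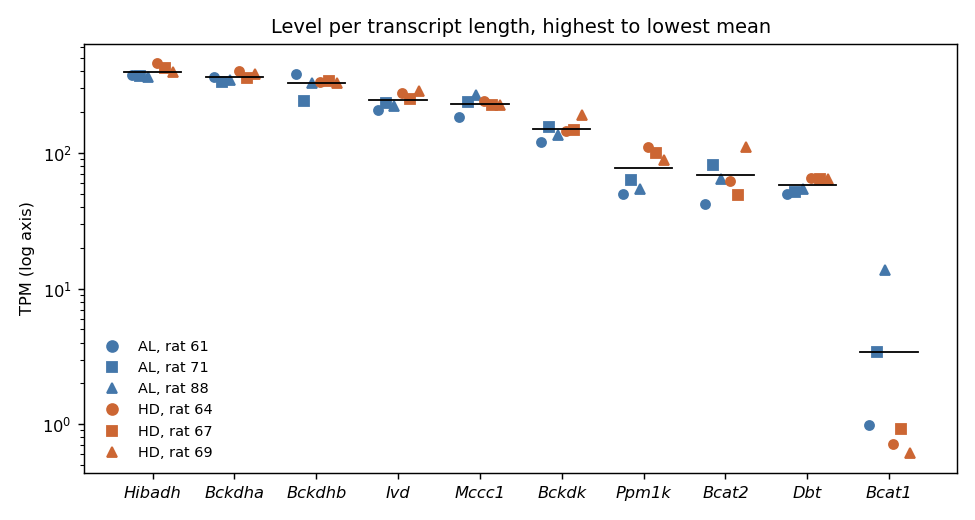
TPM of the 10 genes in each rat on a log axis, ordered by the mean over 6 rats (black line). Levels fall from a mean of 395 TPM for *Hibadh* to 57.9 TPM for *Dbt*, and *Bcat1* lies far lower with a mean of 3.39 TPM.

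Genes around the members were compared between diets from lists of the rest of the pathway, of transport, of the related 2-oxo acid dehydrogenases and of transcription factors. Like the members, these lists were chosen with earlier results of these data known. Their counts are therefore a description and not independent evidence on the pathway. Over these 4 lists 58 genes were tested and none passed the edgeR test after adjustment (smallest adjusted *P* = 0.368). DESeq2 called 2 of them, *Agxt2* and *Pdk2*. Before adjustment, 15 genes were higher and 1 was lower in the HD group at a threshold of 0.05. Among all tested genes, 4.66% were higher and 5.94% lower. A log2 fold change above 0 was found for 49 of 58 listed genes, where 51.3% of all tested genes had one. Without rat 64 the count before adjustment fell from 16 to 4, and without rat 69 it was 20.

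In the rest of the pathway, 22 of 23 tested genes had a log2 fold change above 0. The median was 0.24, against 0.01 for all tested genes, 0.29 for the 10 members and 0.57 for the 7 tested proximal tubule markers. The part of the proximal tubule in these medians was not tested. Before adjustment 6 were higher in the HD group at the 0.05 threshold and none lower. *Agxt2*, a mitochondrial aminotransferase that handles 3-aminoisobutyrate, was at 1220, 1132 and 1363 CPM in AL rats 61, 71 and 88 and at 1898, 1823 and 1724 CPM in HD rats 64, 67 and 69. These groups were apart, with a log2 fold change of 0.55 and a standard error of 0.13 (edgeR adjusted *P* = 0.368, DESeq2 adjusted *P* = 0.00352). *Abat*, a transaminase of the valine and GABA routes, had a log2 fold change of 0.62 (edgeR adjusted *P* = 0.398). The others were *Echs1* (0.38), a mitochondrial enoyl-CoA hydratase, *Pcca* (0.31), a subunit of propionyl-CoA carboxylase, *Hadh* (0.29), a hydroxyacyl-CoA dehydrogenase, and *Aldh6a1* (log2 fold changes, edgeR adjusted *P* from 0.406 to 0.466). *Acadsb*, the dehydrogenase of the isoleucine route, had a log2 fold change of 0.48 (edgeR adjusted *P* = 0.482), or 0.31 without rat 61. *Acad8* was not analysed here.

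Among transporters of branched-chain and other neutral amino acids, 12 genes were tested, 10 had a log2 fold change above 0 and the median was 0.31. *Slc7a8*, a neutral amino acid exchanger of the basolateral membrane, was at 10.1, 10.4 and 7.81 CPM in AL rats 61, 71 and 88 and at 22.8, 15.2 and 12.02 CPM in HD rats 64, 67 and 69. Its log2 fold change was 0.81 with a standard error of 0.26 (edgeR adjusted *P* = 0.406). *Slc7a7*, which exchanges cationic for neutral amino acids, had a log2 fold change of 0.60 (edgeR adjusted *P* = 0.425) and *Slc6a20*, an imino acid carrier, one of 0.53 (edgeR adjusted *P* = 0.409). *Slc25a44*, the mitochondrial carrier of branched-chain amino acids, had a log2 fold change of 0.16 with a standard error of 0.12 (edgeR adjusted *P* = 0.690). Without rat 71 the value for *Slc25a44* was 0.09, and without rat 64 that for *Slc7a8* was 0.53.

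The related dehydrogenase complexes and their kinases and phosphatases gave 13 of 15 log2 fold changes above 0 and a median of 0.25. *Pdk2*, a kinase of the pyruvate dehydrogenase complex from the same kinase family as *Bckdk*, was at 265, 256 and 253 CPM in AL rats 61, 71 and 88 and at 360.4, 336 and 315 CPM in HD rats 64, 67 and 69 (log2 fold change 0.39, edgeR adjusted *P* = 0.398, DESeq2 adjusted *P* = 0.0488). *Ogdh* (0.47) and *Dhtkd1* (0.34), which encode E1 enzymes of related complexes, and *Dlat* (0.28), the E2 of the pyruvate complex, were the other genes past the threshold before adjustment (log2 fold changes, edgeR adjusted *P* from 0.406 to 0.466).

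Of 8 tested transcription factors linked to the pathway, 4 had log2 fold changes above 0 and 4 below, with a median of 0.04 (-0.04 when scaled by library size alone). *Myc* was at 44.2, 17.96 and 23.5 CPM in AL rats 61, 71 and 88 and at 62.05, 62.5 and 51.2 CPM in HD rats 64, 67 and 69 (log2 fold change 1.04, edgeR adjusted *P* = 0.402). *Ppara*, the fatty acid receptor, was scarce at 2.54 to 6.23 CPM, with a log2 fold change of 0.81 (edgeR adjusted *P* = 0.458). *Mlxipl*, the carbohydrate-responsive factor ChREBP known to act on *Bckdk* and *Ppm1k* in liver, was lower in all HD rats, with a log2 fold change of -0.38 and a standard error of 0.13 (edgeR adjusted *P* = 0.406), or -0.25 without rat 71.

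**Figure D5:**
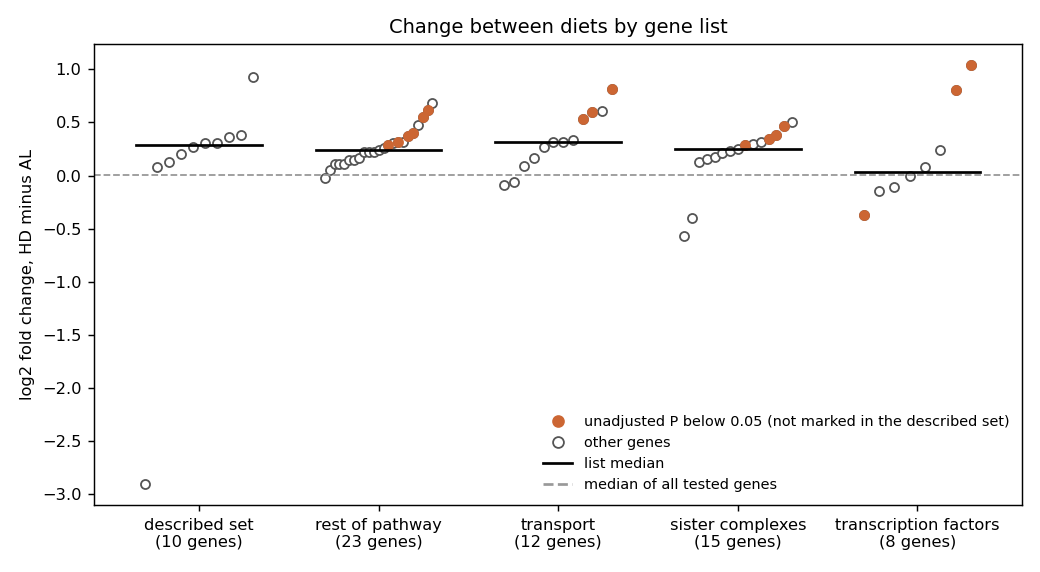
Log2 fold change, HD minus AL, of each tested gene in the described set and in the 4 lists around it, with list medians (black) and the median of all tested genes (dashed). Medians lie at 0.24 to 0.31 except for the transcription factors, where the median is 0.04 (-0.04 when scaled by library size alone), and filled points mark an unadjusted *P* value below 0.05 in the 4 lists.

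The genes with patterns most like that of *Ppm1k* were ranked by Pearson's r of log2(CPM + 0.5) over the 6 rats among 11271 other genes with a mean of at least 1 CPM. The 5 highest were *Ptprn* (r = 0.993), *Pdk2* (0.992), *Eif2b2* (0.991), *Bnc2* (0.987) and *Dok4* (0.985). The 5 lowest were *Trmt44* (r = -0.993), *Tpcn2* (-0.988), *Cinp* (-0.987), *Tead2* (-0.987) and *RT1-CE5* (-0.985). With 6 points in 2 diet groups, genes with a difference between diets and the same order within HD rats rank high by construction. The size of change differed widely among them: *Bnc2* had a log2 fold change of 1.70 and *Eif2b2* one of 0.27.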

How the data were processed

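Kidney RNA of 6 rats was sequenced as poly(A)-selected, unstranded single-end libraries, 3 per diet group, and each rat's group is the diet in its label. The authors quantified transcripts with RSEM 1.1.15 at default parameters against the University of California Santa Cruz gene definitions for rn5. The authors deposited, per transcript and rat, an expected count, its posterior mean, a level with lower and upper bounds, and TPM and FPKM values. Deposited TPM values, scaled by RSEM to transcript length and library, were summed per gene for levels between genes, without TMM factors. Deposited FPKM values served only as an alternative.

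Estimated counts were summed per gene and rounded. Genes that reached a count of 30 in any rat entered edgeR 4.0.16 (R 4.3.3; quasi-likelihood test, TMM normalization, diet as the only factor, Benjamini-Hochberg adjustment, threshold 0.05). Totals were 12499945 to 30466461 counts, with a common biological coefficient of variation of 0.242. Standard errors of log2 fold changes are their size divided by the square root of F. Such *P* values set the difference between diets against the spread among rats of the same group, in these 6 rats. The fit was tested on simulated data. DESeq2 1.42.0, the study's tool, other scalings and filters, posterior mean counts and leaving out each rat were alternatives.

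Members and gene lists were chosen with earlier results of these data known. Named genes are the 10 members, genes of the 4 lists with an unadjusted *P* value below 0.05, fixed neighbours of the members, and the 5 genes at each end of the likeness to *Ppm1k*. Promoter windows came from RefSeq (GRCr8), a build other than that of the files, and no coordinates were converted. Plots were drawn with matplotlib 3.10.9 and tables with pandas 2.3.3, both in Python 3.11.15.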

Additional observations from a re-analysis of the deposited data

How the results depend on the processing

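The log2 fold change of *Ppm1k* stayed above 0 in all 13 alternatives, from 0.82 (without rat 64) to 1.05 (without rat 69), and that of *Bckdk* from 0.23 to 0.36. *Ppm1k* minus *Bckdk* stayed between 0.45 and 0.82 when rats were left out. *Bckdhb* (-0.08 without rat 71), *Bcat2* (-0.03 without rat 69) and *Mccc1* (-0.01 with library size alone) changed sign, as did *Hibch*, at -0.092 to 0.077 over left-out rats. *Bcat1* ranged from -3.40 to -1.43 over left-out rats, and *Ivd* was 0.28 with library size alone. Over all genes, 0 passed the adjusted threshold with edgeR, against 182 with DESeq2 and 2 without a filter on low counts, and 0 to 4 over left-out rats. Genes with an unadjusted *P* value below 0.05 ranged from 606 (without rat 88) to 1744 (without rat 69). Of the 58 genes in the 4 lists, DESeq2 called 2, *Agxt2* (log2 fold change 0.54) and *Pdk2* (0.38), and edgeR 0 in each alternative. Those with an unadjusted *P* value below 0.05 numbered 16, or 10 with library size alone, and 4 (without rat 64) to 20 (without rat 69) over left-out rats. The causes were not tested. Scaling by library size alone shifted all genes, whose median went from 0.01 to -0.07 on the log2 scale. No paired analysis was possible because the labels give each rat its own number. Depth limits *Bcat1*, with 14 to 31 counts in HD rats.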
